A study of Mus musculus with 9 samples.

Results

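The Nuclear Factor I (NFI) family of transcription factors was followed through primary tumours of 3 mouse mammary cancer models. Its members, *Nfia*, *Nfib*, *Nfic* and *Nfix*, were taken by name, and all 4 are among the 14108 genes listed in the counts. HR1 tumours came from the parental line LB-mHR1, which carries the *PIK3CA* H1047R mutation, and LM1 and LM9 tumours came from lines grown out of lung metastases of transposon-mutagenized HR1 cells, so that each model is 1 cell line. There were 3 tumours per model, each grown from 250000 cells injected into the mammary fat pad of female NOD/SCID mice 4 to 8 weeks old, hosts that lack mature lymphocytes but keep myeloid cells, and GFP-positive cells were sorted from the resected tumours for mRNA sequencing. The study classes HR1 as an *Nfib* low-expression model and LM1 and LM9 as *Nfib* high-expression models, and the comparisons ask whether the members differ between the parental and the metastasis-derived tumours.

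NFI proteins bind DNA as dimers, each partner contacting one arm of a palindrome whose arms read TTGGC and GCCAA across a short spacer. They share a conserved amino-terminal DNA-binding domain, differ in the carboxy-terminal part that activates or represses transcription, and can open chromatin at distal enhancers. NFIA is known for driving gliogenesis, NFIB for lung maturation, hair follicle stem cells and metastasis of small cell lung cancer, NFIC for tooth root formation and milk gene regulation, and NFIX for the fetal switch in muscle and the quiescence of neural stem cells.

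The members lie at 4 separate places, given here in GRCm38 coordinates from RefSeq. *Nfib* spans chr4:82290173-82506751 on the minus strand, and *Nfia* lies on the plus strand of the same chromosome at chr4:97578066-98118876. *Nfic* spans chr10:81396191-81431919 and *Nfix* chr8:84704712-84801238, both on the minus strand. Because the genes are paralogues, the coding stretch of 30 bases in which *Nfib* is most like the other members shows how far reads can be told apart. It lies in exon 2 of each gene, within the coding sequence, and capitals mark the bases that differ from *Nfib*:
Nfib, chr4:82498680-82498709, minus strand: tggttcaacctgcaggctcgaaaacgcaag
Nfia, chr4:97783142-97783171, plus strand: tggttcaacctgcaggcCcgaaaGcgGaaA
Nfic, chr10:81420709-81420738, minus strand: tggttcaacctgcaggcGcgCaaGcgcaag
Nfix, chr8:84772226-84772255, minus strand: tggttcaacctgcaggcGcgGaaGcgcaag
Even here *Nfia* differed from *Nfib* at 4 bases and *Nfic* and *Nfix* at 3 each. Over a read length of 50 bases no annotated transcript window was shared between members, and the nearest windows of *Nfib* and another member differed at 5 bases. *Nfic* and *Nfix* came closest, with 58 of the 6711 windows of *Nfic* within 3 mismatches of a window of *Nfix*. The *Nfix* gene shares 4 exonic bases with *Lyl1*, which had at most 4.84 CPM (counts scaled to a common library size) in any tumour.

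Total counts per tumour ranged from 32393958 to 46681945, so that 3 counts were well below 1 CPM. The tumour labelled HR1 replicate 1 stood apart from its model: log2 CPM correlated at 0.878 to 0.891 with the other HR1 tumours, which correlated at 0.961 with each other, and at 0.849 to 0.857 with LM1 and 0.822 to 0.826 with LM9 tumours. Of the 10532 genes that averaged 5 CPM or more, 23.4% were at least 2-fold away in it from the mean of HR1 replicates 2 and 3. The members, the counts of calls and the named NFI targets and partners are therefore given against HR1 with and without this tumour. It was singled out after the data were seen, and the fits without it keep only HR1 replicates 2 and 3. Most epithelial markers were absent or scarce: 7 of 15 were not among the counts, and *Epcam* and *Cdh1* stayed at or below 4.49 CPM. *Krt14*, a keratin of basal cells, was the most abundant, with 152 to 175 CPM in LM1, 1.56, 31.4 and 109 in HR1 replicates 1, 2 and 3 and 12.2 to 15.4 in LM9; the sum of the list was 15.4 to 134 CPM in HR1, 159 to 183 in LM1 and 15.0 to 18.7 in LM9. Of the 8 tested, 0 were higher and 2 lower in each LM model against HR1: *Trp63*, the p63 factor of basal cells, in both (log2 fold changes -2.97 and -3.99, from 7.85 to 12.99 CPM in HR1), *Epcam* in LM1 (-3.64) and *Krt5* in LM9, where each tumour had under 3 counts. *Krt14* passed neither test against HR1. Leaving HR1 replicate 1 out gave 3 higher and 3 lower in LM1, *Krt14* among the higher, and 0 higher and 3 lower in LM9, *Krt14* among the lower. All 12 fibroblast markers were listed, with sums of 23979 to 35956 CPM in HR1, 10737 to 14103 in LM1 and 9157 to 10710 in LM9, and against HR1 edgeR called 6 of them lower in LM1 and 11 in LM9, where 18.7% and 21.9% of all genes were lower. With HR1 replicate 1 left out, 6 were lower and 1 higher in LM1 and 11 lower in LM9. In that fit 26.0% and 27.8% of all genes were lower and 26.9% and 27.9% higher. The median log2 fold change went from -1.43 to -0.86 and from -2.95 to -2.16. Of 12 leukocyte markers, all listed, 6 were lower in LM1 and 9 in LM9 against HR1, with median log2 fold changes of -1.34 and -2.09, beside the same shares of all genes. In the fit without HR1 replicate 1 the counts were 5 and 8, beside the 26.0% and 27.8% of all genes lower there, and the medians -1.27 and -1.99. Their sums were 206 to 800 CPM in HR1, 190 to 200.3 in LM1 and 218 to 268 in LM9, of which *Cd68* made up 107 to 138 CPM in LM9. Endothelial markers, 10 of 12 listed, summed to 46.2 to 92.8, 236 to 287 and 391 to 417 CPM, nearly all of it *Cdh5*, *Kdr* and *Plvap* in LM tumours, which were higher in both LM models than in HR1. Their median log2 fold change was -1.40 in LM1 and -1.50 in LM9, where *Pecam1*, *Tie1* and *Emcn* were lower. Of these markers 3 were higher in each LM model and 0 lower in LM1 and 3 in LM9, where 16.7% and 20.4% of all genes were higher; leaving out HR1 replicate 1 gave 3 higher in each and 4 and 5 lower, against 26.9% and 27.9% of all genes higher and 26.0% and 27.8% lower. Adipocyte markers, 2 of 8 listed, summed to at most 9.24 CPM. The part of these marker levels in the results below was not tested, and in bulk RNA fewer cells of a type and less RNA per cell cannot be told apart. Whether the sorted GFP-positive cells express such markers themselves was not tested either.

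*Nfib* was high in 7 of the 9 tumours and low in HR1 replicates 2 and 3. It stood at 1343, 23.9 and 18.3 CPM in HR1 replicates 1, 2 and 3. The LM1 tumours had 786, 791 and 579 CPM, and the LM9 tumours 532, 583 and 421 CPM. The highest of all 9 values was thus in a tumour labelled HR1, against the class of its model, and the other HR1 tumours lay below every LM tumour. Whether this label is right cannot be told from the counts, and every HR1 mean and test with all 9 tumours depends on it. The means ± s.d. (n = 3) were 462 ± 763 CPM in HR1, 719 ± 121 in LM1 and 512 ± 83.2 in LM9.

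**Figure D1:**
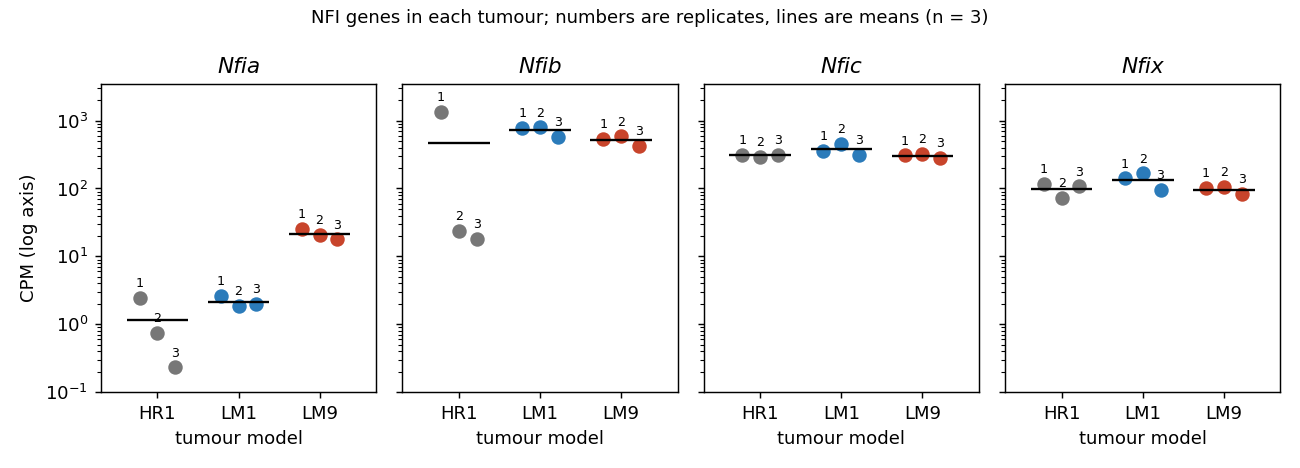
CPM of each NFI gene (log axis) in the 9 tumours by model, with points numbered by replicate and lines at the mean of 3 tumours. *Nfib* reaches 1343 CPM in HR1 replicate 1 against 23.9 and 18.3 in HR1 replicates 2 and 3, *Nfia* is set apart in LM9, and *Nfic* and *Nfix* lie between 284 and 453 and between 72.5 and 167 CPM.

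With all 9 tumours, *Nfib* did not pass the test in any comparison. In the quasi-likelihood test of edgeR, with p-values adjusted after Benjamini and Hochberg, its log2 fold change was 0.64 ± 1.29 (SE) for LM1 versus HR1 (adjusted p = 0.728), 0.15 ± 1.29 for LM9 versus HR1 (adjusted p = 0.935) and -0.49 ± 1.29 for LM9 versus LM1 (adjusted p = 0.812). The models share the same estimate of spread for a gene, so HR1 replicate 1 also enters the SE of LM9 versus LM1. In a fit of only the 6 LM tumours this log2 fold change was -0.50 ± 0.15 (edgeR adjusted p = 0.0165). Without HR1 replicate 1 the same test gave 5.10 ± 0.25 for LM1 (adjusted p = 7.6e-07) and 4.61 ± 0.24 for LM9 (adjusted p = 8.0e-07) against the other HR1 tumours. Since that tumour was singled out with its *Nfib* level known, these p-values are a description and not independent support. Every LM tumour lay above HR1 replicates 2 and 3, but the share of all genes split in this way was not counted. In the fit without HR1 replicate 1 the LM9 level of *Nfib* was below that of LM1 (log2 fold change -0.49 ± 0.17, edgeR adjusted p = 0.0399). LM9 replicate 2, at 583 CPM, nevertheless lay above LM1 replicate 3, at 579 CPM. With all 9 tumours, limma-voom, which averages on the log scale, gave 3.13 ± 1.35 for LM1 and 2.65 ± 1.35 for LM9 against HR1 (limma adjusted p = 0.0997 and 0.142). The 2 comparisons against HR1 share their HR1 tumours and are not independent.

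Within HR1 the split was among the widest of any gene. *Nfib* was 63.7-fold higher in replicate 1 than in the mean of replicates 2 and 3, which ranked 22 among the 10532 genes by rise, where 10.7% were at least 2-fold higher. *Nfia* was 5.05-fold higher, *Nfix* 1.29-fold and *Nfic* 1.03-fold. Per kb of exon, *Nfib* stood at percentile 95.1 of the 13512 genes with a length in HR1 replicate 1, at 31.0 and 28.0 in HR1 replicates 2 and 3, and between 84.8 and 92.4 in the LM tumours.

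*Nfia* was the least abundant member and, with all 9 tumours, the one that passed the test in LM9. Its counts were 74, 33 and 9 in HR1 replicates 1, 2 and 3, which are 2.46, 0.743 and 0.232 CPM. The LM1 tumours had 2.60, 1.88 and 2.01 CPM, and the LM9 tumours 25.2, 20.97 and 17.8 CPM. Every LM9 tumour lay above every HR1 and LM1 tumour, while HR1 replicate 1 lay within the range of LM1. The means ± s.d. (n = 3) were 1.15 ± 1.17 CPM in HR1, 2.16 ± 0.387 in LM1 and 21.3 ± 3.76 in LM9.

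The log2 fold change of *Nfia* was 4.24 ± 0.71 for LM9 versus HR1 (edgeR adjusted p = 0.0023) and 3.30 ± 0.68 for LM9 versus LM1 (edgeR adjusted p = 0.0117), higher in 3 of 3 LM9 tumours. The difference between LM1 and HR1, at 0.94 ± 0.65, did not pass (edgeR adjusted p = 0.288). Without HR1 replicate 1 it was 2.13 ± 0.40 (edgeR adjusted p = 0.00177), and LM9 then exceeded HR1 by 5.42 (edgeR adjusted p = 1.0e-05). The call between LM9 and LM1 was lost without LM1 replicate 1 or LM1 replicate 3, where the edgeR adjusted p was 0.0505 and 0.0564 at log2 fold changes of 3.45 and 3.25.

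*Nfic* ranged from 284 to 453 CPM over the 9 tumours and passed no test. It had 313, 290.2 and 315 CPM in HR1 replicates 1, 2 and 3. The LM1 tumours had 362, 453 and 315 CPM, and the LM9 tumours 307, 324 and 284 CPM. The 3 models overlapped, with LM1 replicates 1 and 2 highest, and HR1 replicate 1, so far from its model for *Nfib*, lay between the other HR1 tumours. Its coefficient of variation was 4.51% among HR1, 18.7% among LM1 and 6.50% among LM9 tumours, against medians of 25.5%, 10.9% and 8.13% over the 10532 genes, so that it varied more than the median gene in LM1. The log2 fold changes were 0.30 ± 0.15 for LM1 versus HR1 (edgeR adjusted p = 0.161), -0.01 ± 0.15 for LM9 versus HR1 (edgeR adjusted p = 0.981) and -0.30 ± 0.15 for LM9 versus LM1 (edgeR adjusted p = 0.183).

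*Nfix* lay below *Nfic* in every tumour and varied more among the HR1 tumours, 1.60-fold from lowest to highest against 1.09-fold. It had 116, 72.5 and 107 CPM in HR1 replicates 1, 2 and 3, and 141, 167 and 95.7 CPM in the LM1 tumours. The LM9 tumours had 101, 104 and 83.7 CPM. LM1 replicates 1 and 2 were again the highest, and the models overlapped. The log2 fold changes were 0.45 ± 0.24 for LM1 versus HR1 (edgeR adjusted p = 0.178), -0.04 ± 0.24 for LM9 versus HR1 (edgeR adjusted p = 0.915) and -0.48 ± 0.24 for LM9 versus LM1 (edgeR adjusted p = 0.176). A p that misses the threshold does not show that *Nfic* or *Nfix* was equal in the models.

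Counted as a family, 0 of 4 members passed edgeR's test for LM1 versus HR1, where 35.5% of the 14086 tested genes did. At an unadjusted p under 0.05 the count was 0 of 4 with edgeR, 0 of 3 with DESeq2, which gave *Nfib* no p, and 2 of 4 with limma-voom, *Nfia* and *Nfib*, where 46.7%, 49.3% and 47.0% of all genes were that low. After adjustment limma-voom called 0 of 4, against 36.0% of all genes. For LM9 versus HR1 it was 1 of 4, against 42.3% of all genes, and for LM9 versus LM1 1 of 4, against 22.0%, *Nfia* in both. Groups without overlap were found for 0 of 4 members in LM1 versus HR1, where 45.6% of all genes showed none, and for 1 of 4, again *Nfia*, in LM9 versus HR1 and LM9 versus LM1, where 53.3% and 63.0% did. Once HR1 replicate 1 was left out, *Nfia* and *Nfib* passed in all 3 comparisons, 2 of 4 members, against 52.8%, 55.7% and 45.5% of all genes, and *Nfic* and *Nfix* in none.

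**Figure D2:**
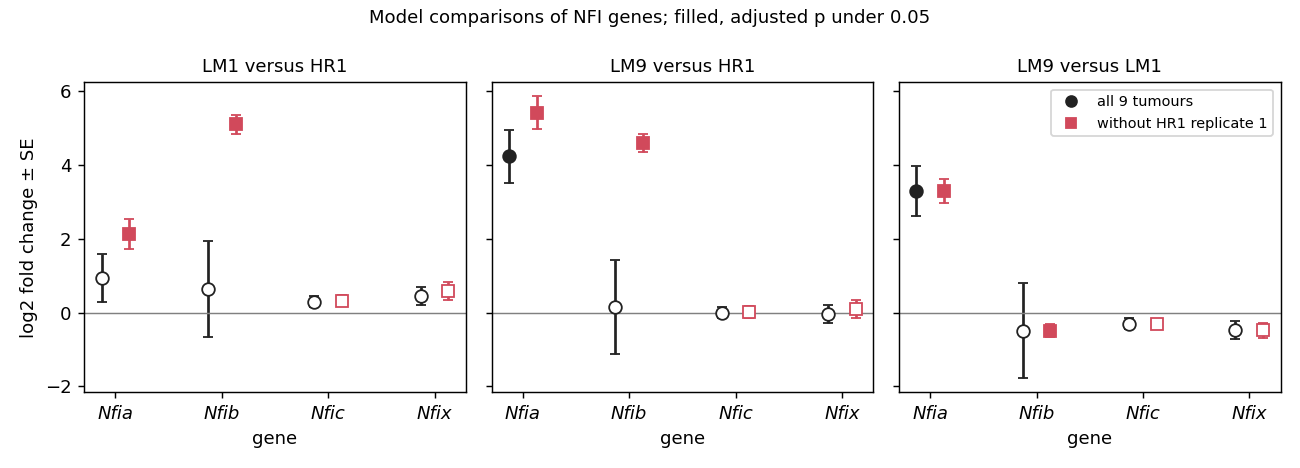
Log2 fold change ± SE of each NFI gene in the 3 model comparisons, with all 9 tumours (circles) and without HR1 replicate 1 (squares); filled symbols have an adjusted p under 0.05. For *Nfib* versus HR1 the values move from 0.64 and 0.15 to 5.10 and 4.61, while *Nfic* and *Nfix* are unfilled in every panel.

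Levels of different members were compared per kb of exon, as CPM divided by the exon union length of the gene (14957 bases for *Nfib*, 10891 for *Nfia*, 6630 for *Nfic* and 7351 for *Nfix*). In HR1 replicates 2 and 3 the order was *Nfic*, *Nfix*, *Nfib*, *Nfia*, and *Nfib* made up 2.89% and 1.93% of the summed NFI level. In HR1 replicate 1 *Nfib* led with 58.7% of the sum. In the LM1 tumours its share was 36.7 to 41.5%, and in the LM9 tumours 33.5 to 37.5%, behind *Nfic* with 43.2 to 51.0% over both models. The first place of *Nfic* in LM tumours depended on the length used: with the longest transcript in place of the exon union, *Nfib* led in all 6 of them with 42.4 to 50.7%. *Nfia* came last in every tumour by both lengths. By the exon union it was at or below 0.189% of the sum in HR1 and LM1 and at 1.85 to 2.37% in LM9, and by the longest transcript at or below 0.161% and at 1.61 to 2.06%.

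The summed NFI level was 153 CPM per kb in HR1 replicate 1 and 55.3 and 63.4 in HR1 replicates 2 and 3. LM1 tumours had 126, 144 and 99.4 CPM per kb, and LM9 tumours 97.9, 104 and 84.0. The LM tumours all lay between the low HR1 tumours and HR1 replicate 1. *Nfic* exceeded *Nfib* 27.4-fold and 38.9-fold per kb in HR1 replicates 2 and 3 and 1.04-fold to 1.52-fold in the LM tumours. By the longest transcript the folds in HR1 replicates 2 and 3 were 17.8 and 25.2, and in the LM tumours *Nfib* exceeded *Nfic* instead, 1.01-fold to 1.49-fold. The ratio of *Nfic* to *Nfix* was steadier, from 2.85 to 4.44 over the 9 tumours.

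**Figure D3:**
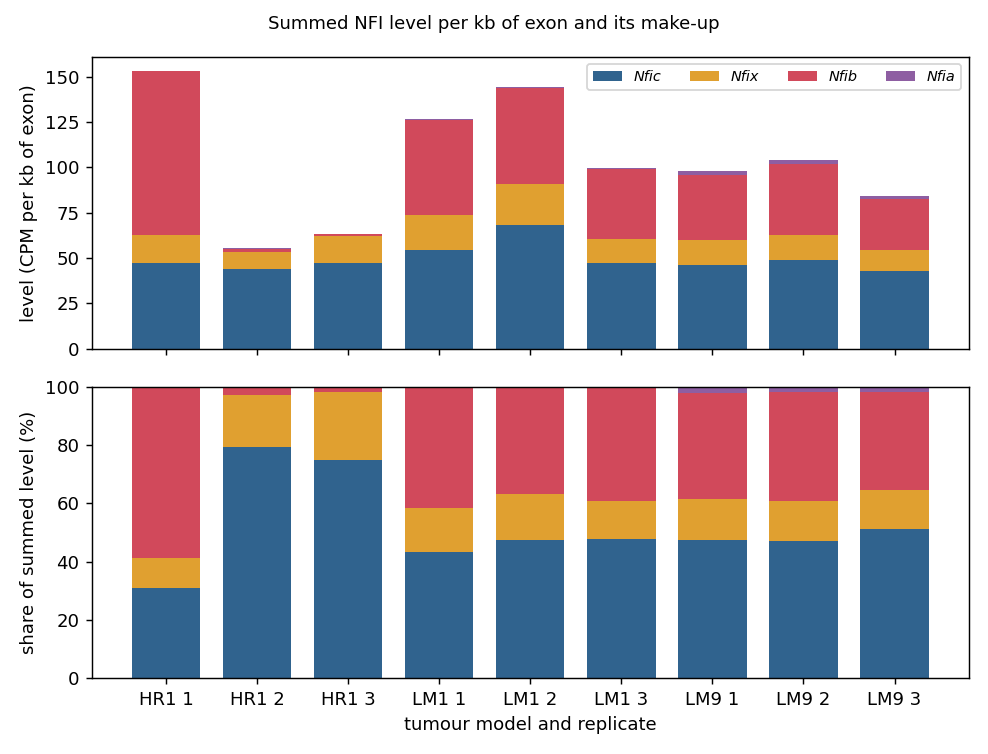
Summed level of the 4 NFI genes in CPM per kb of exon (top) and the share of each gene in percent (bottom) for each of the 9 tumours. The *Nfib* band holds 58.7% in HR1 replicate 1, 2.89% and 1.93% in HR1 replicates 2 and 3 and 33.5 to 41.5% in LM tumours; a band of *Nfia* is visible in LM9.

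Across the 9 tumours the log2 CPM of *Nfic* and *Nfix* correlated at r = 0.907, and at 0.934 without HR1 replicate 1. *Nfia* and *Nfib* correlated at r = 0.62, *Nfib* and *Nfix* at 0.50, and *Nfia* and *Nfic* at -0.16. These values are descriptions over 9 tumours of 3 lines, which share line, library and normalization. Within LM9, replicate 3 was the lowest for all 4 members, and within LM1, replicate 3 was the lowest for *Nfib*, *Nfic* and *Nfix*. Outside the family, *Sox9* and *Ski* were also lowest in both of these tumours, while *Csn2* was highest in both. The share of all genes that were lowest there was not counted.

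The genes whose log2 CPM followed a member most closely over the 9 tumours were taken among 7292 genes of sufficient level and range. For *Nfib* they were *Bmp15*, which encodes a growth factor of the oocyte (r = 0.996), *Tnnc2*, the troponin C of fast skeletal muscle (0.991), *Sectm1a* (0.987), the ferric reductase gene *Cybrd1* (0.984) and *Aldh4a1*, a mitochondrial enzyme of proline breakdown (0.983). *Bmp15* had 34.4 CPM in HR1 replicate 1, 0.225 and 0.0772 in HR1 replicates 2 and 3, 17.8 to 18.5 in LM1 and 10.8 to 15.3 in LM9. *Aldh4a1*, the most abundant of the 5, had 183 CPM in HR1 replicate 1, 36.5 and 34.8 in HR1 replicates 2 and 3, and 132 to 195 in LM tumours. All 5 were lowest in HR1 replicates 2 and 3, 4 of them were highest in HR1 replicate 1, and 181 genes (2.48%) reached an r of 0.9 with *Nfib*. That number changed with the tumours and the measure: without HR1 replicate 1 it was 764 (10.5%), and by Spearman's rho over all 9 tumours 52 (0.713%).

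For *Nfia* the closest genes were *Mertk*, a receptor tyrosine kinase for apoptotic cells (r = 0.988), *Enpp4* (0.984), *Mpdz*, a scaffold protein with many PDZ domains (0.983), *Cfb*, complement factor B (0.982), and *Gm4951* (0.982). *Mpdz* had 8.47 to 35.6 CPM in HR1, 31.9 to 50.5 in LM1 and 436 to 549 in LM9, and *Cfb* had 7.72 to 32.1, 57.8 to 69.5 and 663 to 734 CPM. For *Nfic* the best values were lower, led by *Skil* (0.885), which encodes the SMAD corepressor SnoN, *Kifc3* (0.880), *Zbtb40* (0.873), *Enah* (0.851) and *Farp1* (0.836). *Nfix* was followed by *3425401B19Rik* (0.922), the telomere protein gene *Terf2* (0.878), the chromatin remodeller gene *Smarca5* (0.865), and again *Skil* (0.857) and *Kifc3* (0.848). The ranks in these lists are not stable. By Spearman's rho, 0 of the 5 genes were shared for *Nfia* and for *Nfib*, 1 for *Nfic* and 2 for *Nfix*. Without HR1 replicate 1 they were 2 for *Nfia* and 0 for the other members. The 5 genes listed for *Nfib* still had r of 0.982 to 0.996 without that tumour, and those for *Nfia* 0.983 to 0.996.

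**Figure D4:**
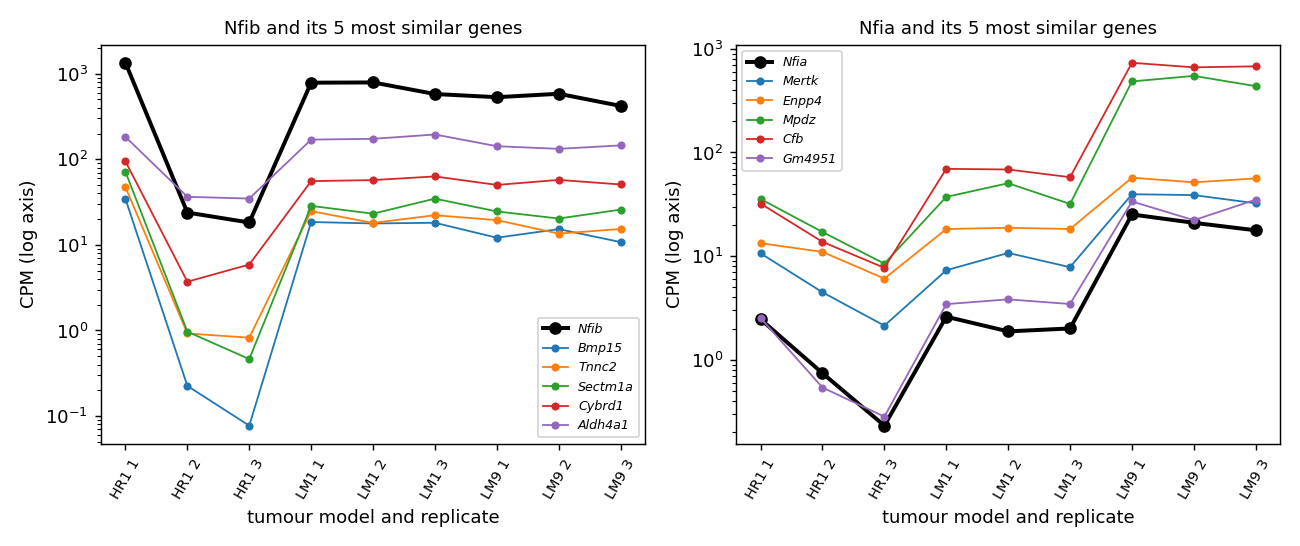
CPM (log axis) of *Nfib* (left) and *Nfia* (right), in black, with the 5 genes of highest r over the 9 tumours; lines only join the points of a gene. The genes on the left drop in HR1 replicates 2 and 3 as *Nfib* does (23.9 and 18.3 CPM), and those on the right are highest in LM9.

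A list of 21 NFI target genes was looked at next, of which 14 were among the counts and tested. Most are known from other tissues, but *Ero1l* was chosen by the study with the help of these same tumours, so that its calls are not independent evidence. In LM1 versus HR1, 4 were higher, 2 lower and 8 did not pass, with a median log2 fold change of 0.12 against -0.04 over all genes. In LM9 versus HR1, 5 were higher, 5 lower and 4 did not pass, with a median of 0.47 against -0.05. In LM9 versus LM1, 2 were higher, 2 lower and 10 did not pass, with a median of 0.53 against 0.00. The share of the list that passed was thus 6, 10 and 4 of 14, where 35.5%, 42.3% and 22.0% of all genes passed. Higher were 16.7%, 20.4% and 11.5% of all genes in the 3 comparisons, and lower 18.7%, 21.9% and 10.6%. Without HR1 replicate 1 the counts of higher and lower genes were 6 and 3, 9 and 4, and 5 and 4 in the 3 comparisons, out of 14, where 52.8%, 55.7% and 45.5% of all genes passed in either direction. The median log2 fold changes were then 0.52, 0.64 and 0.53, against 0.01, -0.01 and -0.00048 over all genes. Without *Ero1l*, a count added after the data were seen, and with all 9 tumours, 3 of 13 were higher and 2 lower in LM1 versus HR1, 4 and 5 in LM9 versus HR1, and 1 and 2 in LM9 versus LM1. Without both *Ero1l* and HR1 replicate 1 these counts were 5 and 3, 8 and 4, and 4 and 4 of 13.

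*Sox9*, a transcription factor of chondrocytes and glia that is also an NFI partner, showed log2 fold changes of 3.91 ± 0.47 for LM1 (edgeR adjusted p = 6.0e-04) and 4.76 ± 0.49 for LM9 (edgeR adjusted p = 2.5e-04) against HR1. Its level was 6.84 to 17.4 CPM in HR1, with replicate 1 at 17.4, against 103 to 395 CPM in LM tumours. *Ero1l*, the oxidase of disulfide formation in the endoplasmic reticulum, was at 37.2, 65.7 and 72.3 CPM in HR1 replicates 1, 2 and 3, at 111 to 132 in LM1 and at 806 to 1232 in LM9. Its log2 fold change was 1.09 ± 0.26 for LM1 versus HR1 (edgeR adjusted p = 0.0125), 4.07 ± 0.29 for LM9 versus HR1 (edgeR adjusted p = 4.7e-05) and 2.97 ± 0.28 for LM9 versus LM1 (edgeR adjusted p = 5.3e-04). HR1 replicate 1, the tumour with the most *Nfib*, had the least *Ero1l* of all 9.

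*Apcdd1*, an inhibitor of Wnt signalling that NFIA activates in glial precursors, fell in LM1 (log2 fold change -2.23 ± 0.25, edgeR adjusted p = 4.5e-04) and was lower again in LM9 than in LM1 (-0.82 ± 0.24, edgeR adjusted p = 0.0425). *Ezh2*, the histone methyltransferase of Polycomb repression, rose in LM1 by 1.23 ± 0.12 (edgeR adjusted p = 2.6e-04), from 28.5 to 33.6 CPM in HR1 to 67.4 to 75.7 CPM. *Klf4* rose in LM9 by 3.12 ± 0.54 against HR1 (edgeR adjusted p = 0.0026) and by 2.12 ± 0.52 against LM1 (edgeR adjusted p = 0.0220). *Hes1*, a repressor downstream of Notch, was lower in LM9 than in LM1 by -0.94 ± 0.19 (edgeR adjusted p = 0.0113). *Col1a2*, a collagen gene that is also on the fibroblast list, was lower by -5.21 ± 1.15 in LM1 (edgeR adjusted p = 0.0089) and by -4.64 ± 1.12 in LM9 (edgeR adjusted p = 0.0112) against HR1. Here HR1 replicate 1, at 44.2 CPM, lay within the 35.0 to 73.2 CPM of the LM tumours and far from the 1472 and 2725 CPM of HR1 replicates 2 and 3.

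With HR1 replicate 1 left out these target genes kept their calls against HR1. The log2 fold changes were then 4.33 and 5.18 for *Sox9* and -5.77 and -5.20 for *Col1a2* in LM1 and LM9, 0.86 and 3.83 for *Ero1l*, -2.08 for *Apcdd1* and 1.19 for *Ezh2* in LM1, and 2.74 for *Klf4* in LM9. The calls between LM9 and LM1 were less firm: *Apcdd1* lost its call without any 1 of the 6 LM tumours, *Klf4* without LM1 replicate 1 or 3 or LM9 replicate 1 or 2, and *Hes1* without LM1 replicate 1, at edgeR adjusted p-values of up to 0.132, 0.0881 and 0.0514.

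**Figure D5:**
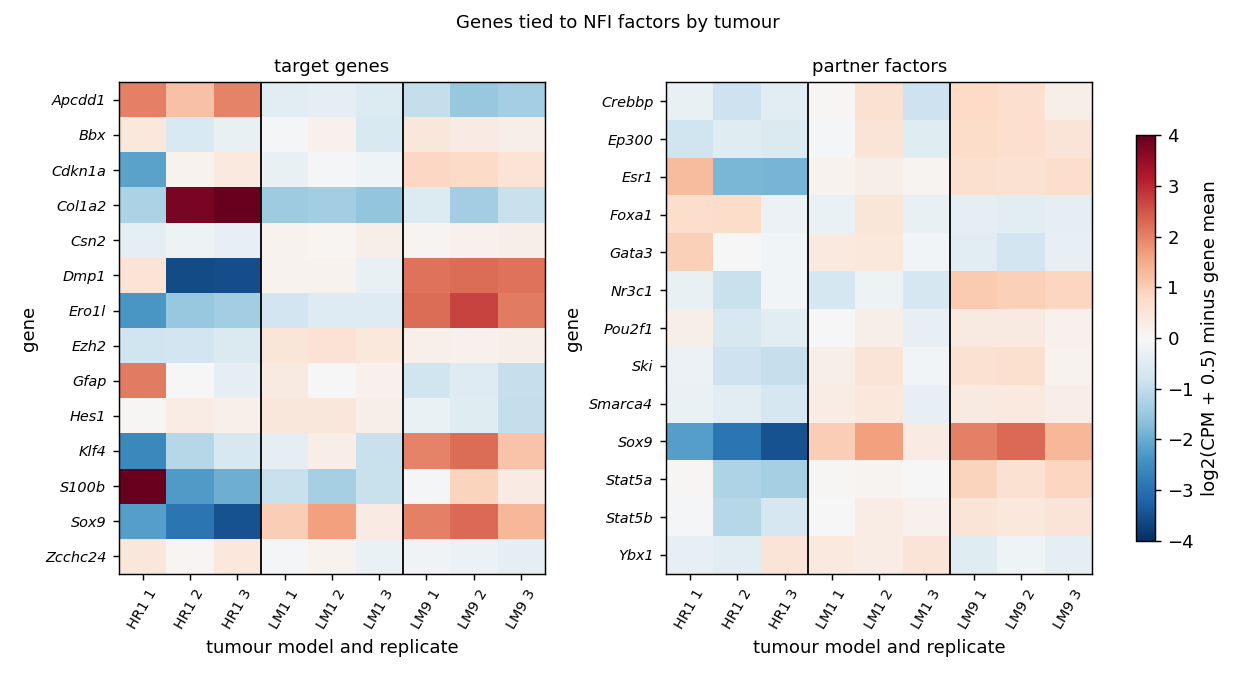
Tested NFI target genes (left) and partner factors (right) in the 9 tumours, as log2 of CPM plus 0.5 minus the mean of the gene, with colours limited at 4 either way. HR1 replicate 1 lies apart from the other HR1 columns for *Col1a2* (44.2 CPM, within the LM range), *Dmp1* (10.7 CPM, between LM1 and LM9) and *Stat5a* (37.6 CPM, within the LM1 range) and near them for *Sox9* (17.4 CPM), *Apcdd1* (720 CPM) and *Ezh2* (28.5 CPM).

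*Dmp1*, *S100b* and *Esr1* were singled out after their values were seen, for the place of HR1 replicate 1, so that their values are a description with no test. *Dmp1*, a dentin matrix gene downstream of NFIC, had 10.7 CPM there, 0.135 and 0.154 in HR1 replicates 2 and 3, 5.72 to 7.92 in LM1 and 33.4 to 35.0 in LM9. *S100b*, a calcium-binding protein of glia, had 308 CPM in HR1 replicate 1 and 0.383 to 7.37 CPM in the other 8 tumours. The sign of its log2 fold change turned with that tumour: against HR1 it was -6.00 in LM1 and -4.29 in LM9 with all tumours, and 1.73 and 3.44 without HR1 replicate 1. *Esr1*, the oestrogen receptor gene from the partner list, had 68.6 CPM in HR1 replicate 1, 7.72 and 7.46 in HR1 replicates 2 and 3, 31.1 to 33.6 in LM1 and 43.4 to 46.5 in LM9.

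The NFI palindrome was searched in RefSeq promoters of GRCm38, which run from 250 bases before to 50 bases after a start, on both strands; the palindrome reads alike on both. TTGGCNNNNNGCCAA was held by 12 of 32851 promoters (0.0365%), and the shorter core TGGCNNNNNGCCA, which lies inside it, by 265 (0.807%). None of the 6 promoters of *Nfia*, *Nfic* and *Nfix* held either; the promoter of *Nfib* was not analysed here. Among the target and partner lists 1 gene held the core, *Dmp1*, whose match began 127 bases before the start. It is shown because the level of this gene split the HR1 tumours as *Nfib* did, with the core in capitals:
Dmp1, chr5:104197440-104197468, plus strand: tgttctggTGGCTGCTTGCCAcggactta
A match in these letters is a description of the window and not a binding site, and no match says only that the letters are not in it.

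The second list held 16 factors known to act with NFI proteins, such as nuclear receptors, STAT5 and coactivators, of which 13 were tested. In LM1 versus HR1, 4 were higher, none was lower and 9 did not pass, with a median log2 fold change of 0.60. In LM9 versus HR1, 8 were higher, 2 lower and 3 did not pass, with a median of 1.05. In LM9 versus LM1, 1 was higher and 12 did not pass, with a median of 0.32. Passing shares were 4, 10 and 1 of 13, to be read against the same 35.5%, 42.3% and 22.0% of all genes. Leaving out HR1 replicate 1, the counts of higher and lower factors were 7 and 0, 10 and 1, and 4 and 2 of 13, beside the 52.8%, 55.7% and 45.5% of all genes that passed in that fit. The median log2 fold changes were then 0.73, 1.27 and 0.32.

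The higher factors included *Ski*, a SMAD corepressor, at 0.86 ± 0.24 in LM1 (edgeR adjusted p = 0.0236), *Smarca4*, an ATPase of SWI/SNF chromatin remodelling, at 0.63 ± 0.20 (edgeR adjusted p = 0.0381), and *Stat5b*, the signal transducer of growth hormone, at 0.74 ± 0.25 in LM1 (edgeR adjusted p = 0.0445). *Stat5a*, which transmits prolactin signals in the mammary gland, was higher in LM9 by 1.51 ± 0.34 (edgeR adjusted p = 0.0089). It had 37.6 CPM in HR1 replicate 1 and 15.1 and 14.2 in the other HR1 tumours, against 37.0 to 39.5 in LM1 and 55.5 to 68.2 in LM9. *Nr3c1*, the glucocorticoid receptor gene, was the 1 factor that passed between the LM models with all 9 tumours, higher in LM9 by 1.48 ± 0.22 (edgeR adjusted p = 0.0034), with 136 to 156 CPM against 45.7 to 64.5. It was also higher in LM9 than the 40.6 to 70.0 CPM of HR1, by 1.35 ± 0.22 (edgeR adjusted p = 0.0020). *Foxa1*, a pioneer factor that binds with NFI proteins, was scarce, at no more than 0.630 CPM in any tumour, and was lower in LM9 than in HR1 (edgeR adjusted p = 0.0215), with each LM9 tumour under 3 counts. Without HR1 replicate 1 these factors kept their calls against HR1, with log2 fold changes of 1.10 for *Ski*, 0.75 for *Smarca4* and 1.08 for *Stat5b* in LM1 and 2.11 for *Stat5a* and 1.40 for *Nr3c1* in LM9, while the edgeR adjusted p of *Foxa1* was 0.0227. The calls of *Ski*, *Smarca4* and *Stat5b* in LM1 and of *Foxa1* in LM9 were lost without single other tumours, at edgeR adjusted p-values of up to 0.0937, 0.142, 0.137 and 0.0716.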

How the data were processed

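The authors deposited 1 table of whole-number counts per gene for each of the 9 tumours, without normalization. Per the methods, stranded libraries were read from a single end, aligned to mm10 with STAR and counted over exons with QuasR; a strand setting for gene counts is not given in the sources used here. Genes with few reads are not among the 14108 listed, 14085 of which matched RefSeq symbols by Entrez number. Lengths came from GENCODE for 13512 genes.

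Counts were scaled by TMM factors (0.928 to 1.05) and are given as CPM. All 4 members and 14086 genes in all passed edgeR's filter. The main test was edgeR's (version 4.0.16, R 4.3.3) robust quasi-likelihood F-test, fitted to 3 groups of 3 tumours. Its p-values were adjusted over all tested genes by Benjamini-Hochberg, threshold 0.05. The test was also run on simulated counts, but these held no divergent tumour, so a case such as HR1 replicate 1 is not covered. Correlations used log2 CPM with a prior count of 2, over genes that averaged 5 CPM or more with a log2 range of 1 or more. Named genes were the members, the 5 genes most like each, the 4 largest called changes of each list per comparison, and *Ero1l*. The members and lists were chosen with earlier results of these data known, and 1 factor of the partner list is not reported here. Alternatives were DESeq2 1.42.0, limma-voom (limma 3.58.1), other scalings, filters and tumour sets, and the replicate number as a block. The labels number tumours but name no host animal, so p-values measure the spread between these tumours. Counting limits cover counting error only.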

Additional observations from a re-analysis of the deposited data

Results flagged for a closer look

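The effect on *Nfia* differed between the metastasis-derived models: against the same HR1 tumours it was a log2 fold change of 4.24 in LM9 and 0.94 in LM1, and the test of the difference itself gave 3.30 (edgeR adjusted p = 0.0117). All 3 LM9 tumours lay above all 3 LM1 tumours.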

How the results depend on the processing

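The model comparisons of the 4 members kept their direction and their side of the threshold in most of the 9 other settings. With library size only, *Nfic* in LM9 versus HR1 turned from -0.0053 to 0.0060. With only the 6 tumours compared, *Nfib* (-0.50) and *Nfix* (-0.49) passed in LM9 versus LM1 (edgeR adjusted p = 0.0165 and 0.0376), and 3008 and 7709 genes were called in LM1 versus HR1 and LM9 versus LM1, against 4994 and 3102 with all tumours. DESeq2 gave *Nfib* no p. With each tumour left out in turn, log2 fold changes for LM1 versus HR1, LM9 versus HR1 and LM9 versus LM1 ranged from 0.45 to 2.13, 3.75 to 5.42 and 3.16 to 3.45 for *Nfia*, from 0.073 to 5.10, -0.42 to 4.61 and -0.63 to -0.37 for *Nfib*, from 0.13 to 0.41, -0.069 to 0.044 and -0.42 to -0.14 for *Nfic*, and from 0.25 to 0.64, -0.22 to 0.10 and -0.68 to -0.29 for *Nfix*. Without HR1 replicate 2 or 3, *Nfib* in LM9 versus HR1 turned to -0.41 and -0.42. *Nfic* in the same comparison was 0.014, 0.016 and 0.044 and *Nfix* 0.099, 0.029 and 0.054 without HR1 replicate 1, HR1 replicate 3 or LM9 replicate 3. Genes called ranged from 3121 to 7453, 3768 to 7862 and 1150 to 6413. The cause of these moves was not tested. The replicate numbers did not pair the tumours, since same-numbered tumours correlated from -0.117 to 0.162 in their deviations from the model mean; with the number as a block, *Nfia* gave 4.57 and 3.30 for LM9 versus HR1 and versus LM1 (edgeR adjusted p = 0.0032 and 0.016), *Nfib* moved to 2.52 and 2.06 for LM1 and LM9 versus HR1 (edgeR adjusted p = 0.287 and 0.365), and no member changed its call. Among the named genes outside the family, *Stat5b* in LM1 lost its call in 11 settings, *Smarca4* in LM1 in 8, *Apcdd1* in LM9 versus LM1 in 6, *Ski* in LM1 in 5, *Klf4* in LM9 versus LM1 and *Foxa1* in 4 each and *Hes1* in 1. *Col1a2* in LM9 versus HR1 lost it with limma-voom (-3.32, limma adjusted p = 0.0591).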
